A study of Homo sapiens with 9 samples.

Results

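Induction of a hairpin RNA against ELF5 was examined in breast cancer cells that also received a progestin. The cells were T47D, an established human luminal breast cancer line with progesterone receptor, carrying the single retroviral vector pHUSH from which doxycycline switches on a short hairpin RNA against ELF5. Of the 9 arrays in the series, 6 were compared: 3 of cells given 10 nM ORG2058, a synthetic progestin, together with 0.1 µg/ml doxycycline for 4 days, and 3 of cells given 10 nM ORG2058 alone for 4 days. Another 3 arrays, of cells given ethanol vehicle, entered the estimate of the spread and are given as levels only. All groups carried the vector, were kept in puromycin and were grown in serum approved for tetracycline systems. Each array held RNA from cells pooled from 3 wells, and the design text describes the triplicates as independent experiments. Doxycycline without progestin, and doxycycline in cells with a control hairpin, were not analysed here, so the effect of the ELF5 hairpin, the effect of doxycycline itself and the effect of expressing any hairpin cannot be told apart. Whether the line is a clone or a pool of infected cells is not stated in the labels.

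Members were the probe sets with a single gene symbol and a mean of 7 or more, on the deposited log2 scale, over the 6 arrays. They numbered 10504 of the 33297 probe sets on the array and covered 10036 genes. The last probe set inside this limit belonged to GPR52, with a mean of 7.00052, and the first outside it to TMOD1, with a mean of 6.99983. All 12 markers of luminal breast epithelium were members, from TFF3 at 7.53 to KRT8 at 13.1, which is the cell type the line stands for. Among markers of other cells, 3 of 5 measured for basal or myoepithelial cells reached 7 (KRT14 7.77, ACTA2 7.11 and KRT5 7.08), as did 1 of 7 for fibroblasts, 2 of 5 for endothelium and 1 of 7 for blood cells. They ran from the fibroblast gene LUM at 0.36 to the endothelial gene CDH5 at 9.37, with the collagen gene COL1A1 at 8.30. The median member level was 8.49 to 8.56 on the progestin arrays and 8.56 to 8.64 with doxycycline. Rank correlations over the members were 0.982 to 0.990 among progestin arrays, 0.985 to 0.990 among arrays with doxycycline, and 0.968 to 0.986 between the groups.

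The ETS family of transcription factors, to which ELF5 belongs, recognises DNA around a GGAA core. In the mammary gland ELF5 directs luminal progenitors toward the milk-secreting alveolar lineage, downstream of progesterone and prolactin. In cultured luminal breast cancer cells progestins induce ELF5, drive differentiation-related genes and, after an initial burst, slow the cell cycle. The design asks how much of the response to progestin depends on the rise of ELF5.

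The promoters of the 4 genes that passed the test are shown because ELF5 binds a GGAA core. Each line is the 250 bases before the RefSeq transcription start (assembly GRCh38.p14) in the direction of transcription, 5′ to 3′, with every GGAA, or TTCC for a core on the opposite strand, in capitals. The windows lie at chr11:34511725-34511974 on the minus strand for ELF5, at chr3:186930276-186930525 on the plus strand for ST6GAL1, at chr7:20217385-20217634 on the minus strand for MACC1 and at chr3:194633420-194633669 on the minus strand for TMEM44.
ELF5: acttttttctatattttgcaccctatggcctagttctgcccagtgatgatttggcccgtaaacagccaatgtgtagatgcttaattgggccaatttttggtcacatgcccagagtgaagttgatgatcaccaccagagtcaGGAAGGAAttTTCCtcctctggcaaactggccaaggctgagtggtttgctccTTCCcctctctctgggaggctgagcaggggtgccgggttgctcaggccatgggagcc
ST6GAL1: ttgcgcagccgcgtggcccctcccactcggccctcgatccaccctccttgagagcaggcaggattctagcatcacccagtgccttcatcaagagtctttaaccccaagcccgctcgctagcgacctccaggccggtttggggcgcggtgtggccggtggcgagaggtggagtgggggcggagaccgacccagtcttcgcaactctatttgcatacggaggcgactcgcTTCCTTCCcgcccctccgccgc
MACC1: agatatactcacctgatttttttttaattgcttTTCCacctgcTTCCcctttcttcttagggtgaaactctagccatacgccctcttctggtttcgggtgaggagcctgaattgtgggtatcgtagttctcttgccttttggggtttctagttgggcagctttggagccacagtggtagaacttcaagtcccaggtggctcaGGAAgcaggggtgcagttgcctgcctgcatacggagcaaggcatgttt
TMEM44: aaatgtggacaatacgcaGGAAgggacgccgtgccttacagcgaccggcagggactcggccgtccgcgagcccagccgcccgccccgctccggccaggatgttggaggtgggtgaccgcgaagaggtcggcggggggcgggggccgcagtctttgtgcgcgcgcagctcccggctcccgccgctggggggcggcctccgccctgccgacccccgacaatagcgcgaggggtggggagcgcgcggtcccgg

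The 4 windows held 4, 2, 3 and 1 cores, in the order printed. A core was found in 92.7% of all 35116 promoter windows of this table, with a median of 3 per window. None of the 4 windows held CCGGAAGT, AGGAAGT or GGAAGTA, 3 extended forms of the ETS site that share their GGAA and can overlap, searched on both strands. In the same 250 bases before the start, at least 1 extended form was present in 11.6% of all windows, counted window by window. Member genes were counted by gene, with a match in any window of the gene. The shares were 17.7% of 8113 member genes, 18.6% of 295 higher with doxycycline and 6.45% of 31 lower ones. Higher and lower are as called below by the variance-trend fit. A gene can have several windows, so the share by window and the shares by gene are not comparable. These are matches of letters and say nothing about binding.

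With doxycycline the cells had less ELF5 mRNA, and ST6GAL1 and MACC1 were higher and TMEM44 lower. The test passed no other gene. Most members moved little: 38 of 10504 probe sets differed by 1.5-fold or more, 32 higher and 6 lower, and 0 by 2-fold or more. A second fit called a broader set of small differences, which as deposited were mostly higher with doxycycline and included many genes with very long mRNAs.

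ELF5 was the target of the hairpin and was measured by 1 probe set. It read 11.31, 11.23 and 11.31 on the progestin arrays and 10.44, 10.46 and 10.35 on the arrays with doxycycline. All 3 arrays with doxycycline lay below all 3 without it, and all lay above the vehicle arrays, at 10.26, 10.21 and 10.05. The log2 change between the progestin groups was -0.87 (SE 0.08), a 1.82-fold fall, with an adjusted p of 0.029 by limma with Benjamini-Hochberg adjustment over 21214 probe sets. The exact two-sided permutation test gave 0.1, the smallest p that 3 arrays against 3 allow. The limma call was lost with any single array but vehicle replicate 3 left out (adjusted p 0.0715 to 0.149, against 0.0263 without that array), while the change stayed between -0.89 and -0.83. In a bulk sample fewer cells expressing a gene and less RNA per cell cannot be told apart, and this holds for each difference below.

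ST6GAL1 encodes the enzyme that adds α2,6-linked sialic acid to the N-glycans of surface and secreted proteins. It read 7.11, 7.13 and 7.21 with progestin and 7.95, 7.96 and 8.15 with doxycycline added, and the vehicle arrays read 7.45, 7.30 and 7.36. All 3 arrays with doxycycline lay above the other 6. The change was 0.87 (SE 0.08, 1.83-fold, adjusted p = 0.029, limma), and the call was lost with any 1 of the 9 arrays left out, with changes of 0.81 to 0.91.

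MACC1, a regulator of the MET receptor gene, and TMEM44, a membrane protein, passed the same test but had means under 7 and so were not members. MACC1 read 5.30, 4.96 and 4.99 with progestin and 6.89, 6.86 and 6.63 with doxycycline (change 1.71, SE 0.14, 3.27-fold, adjusted p = 0.029, limma), with 4.50, 4.66 and 4.22 in vehicle. TMEM44 read 7.51, 7.39 and 7.46 with progestin and 6.02, 5.96 and 6.39 with doxycycline (change -1.33, SE 0.13, 2.51-fold lower, adjusted p = 0.029, limma), with 7.89, 7.95 and 7.66 in vehicle. MACC1 stayed past the threshold without vehicle replicate 3 or progestin replicate 1 and TMEM44 without progestin plus doxycycline replicate 3, and each was lost without any other single array. On the arrays with doxycycline MACC1, ST6GAL1 and TMEM44 lay outside the range of both other groups, whereas ELF5 lay between them.

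**Figure D1:**
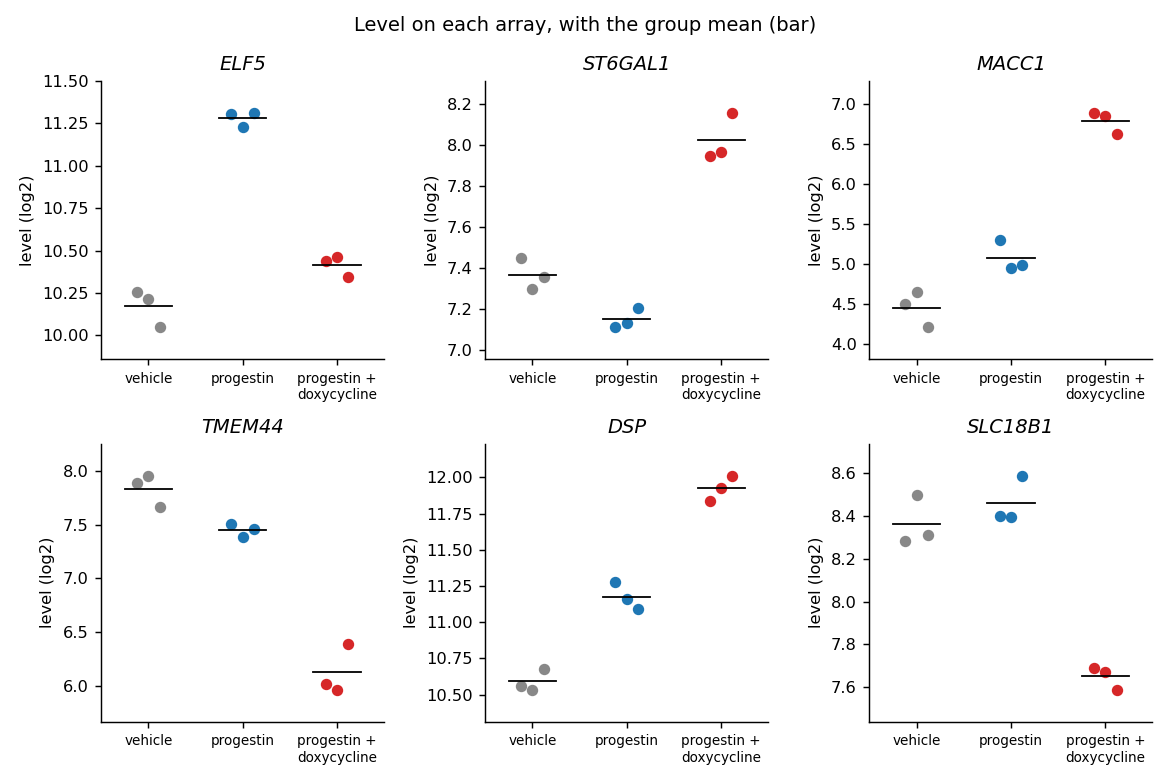
Level (log2) of 6 genes on each of the 9 arrays, grouped as vehicle, progestin and progestin plus doxycycline; points are arrays and bars are group means of 3, and the axes do not start at 0. ELF5 with doxycycline (10.35 to 10.46) sits between vehicle and progestin alone, while ST6GAL1, MACC1, TMEM44, DSP and SLC18B1 with doxycycline lie outside both other groups.

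Over the whole table the test called 4 of 21214 probe sets (0.0189%), 2 higher (0.00943%) and 2 lower (0.00943%). Of the members it called 2 of 10504, ST6GAL1 higher and ELF5 lower. At an unadjusted p under 0.05 limma gave 1391 members higher and 311 lower as deposited, 1141 and 797 after centring, and 1183 and 795 after quantile normalization. This test holds all probe sets to 1 common prior for the variance, and the median residual SD was 0.105 among members but 0.243 among tested probe sets with lower means. A second limma fit, in which the prior variance follows the level and outlying variances are handled robustly (the variance-trend fit), called 377 members higher and 40 lower. Over all tested probe sets it called 478 higher (2.25%) and 52 lower (0.245%). The corresponding shares of the members were 3.59% and 0.381%.

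The counts of the variance-trend fit rested on single arrays. Without vehicle replicate 3 it called 623 members higher and 83 lower, and without vehicle replicate 1 or 2 it called 277 or 354 higher. Leaving out progestin replicate 1, 2 or 3 gave 244, 103 or 274 members higher and 16, 21 or 26 lower. Leaving out the doxycycline replicates in the same order gave 338, 51 or 111 higher and 30, 17 or 15 lower. Of named members, ELF5, DSP, SLC18B1, ST6GAL1 and PGR stayed past its threshold without any single array (highest adjusted p 1.2e-06, 1.0e-05, 0.00114, 0.00229 and 0.0333).

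The direction of the small differences depended in part on how the arrays were scaled. As deposited, the median change of the members was 0.04 and 62.7% of changes were positive. With each array centred on its member median the share was 46.0%, and with quantile normalization it was 47.5%. The variance-trend fit called 317 members higher and 136 lower after centring, and 371 higher and 165 lower after quantile normalization, so 69.8% and 70.5% of all its calls in the table were higher, against 90.2% as deposited. The 3 arrays with doxycycline lay wholly above the 3 without it for 2223 members (21.2%) and wholly below for 647 (6.16%), and over all tested probe sets for 14.8% and 6.43%.

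**Figure D2:**
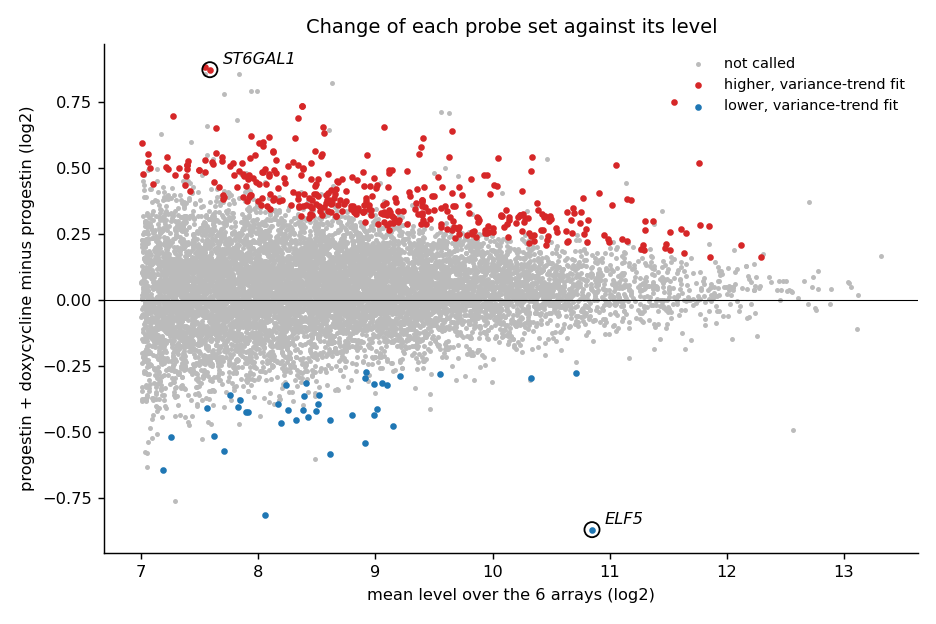
Log2 change with doxycycline against the mean level over the 6 arrays, 1 point per member probe set, coloured where the variance-trend fit called it higher (377) or lower (40); circles mark ST6GAL1 and ELF5. Most coloured points lie above 0 and within 0.75 of it, and ELF5 stands apart at the lower edge.

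The 12 highest changes of members whose groups did not overlap ran from 0.88 for NABP1 to 0.65 for TRANK1. DSP, desmoplakin, which ties desmosomes to keratin filaments, read 11.28, 11.16 and 11.09 with progestin and 11.83, 11.93 and 12.01 with doxycycline. Its 3 values with doxycycline lay above all others, the vehicle arrays being at 10.56, 10.53 and 10.68. The change was 0.75 (SE 0.08), with an adjusted p of 0.0549 by limma and 1.8e-07 in the variance-trend fit.

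CDSN, corneodesmosin, a glue protein of corneocytes, had a change of 0.79 with an SE of 1.40, because its vehicle values scattered from -3.58 to 2.59, and its other 2 probe sets gave 0.79 and 0.85. It did not pass either fit. The zinc-finger genes ZNF718 and ZNF845 had changes of 0.73 (SE 0.12) and 0.70 (SE 0.11), with adjusted p of 5.8e-04 and 0.0038 in the variance-trend fit, and ZNF814 a change of 0.78 (SE 0.23) that did not pass (adjusted p 0.0819 there). The 2 probe sets of ZNF718 carry identical values. UBR4, a very large ubiquitin ligase, read 8.11, 7.84 and 8.02 with progestin and 8.46, 8.73 and 8.84 with doxycycline (change 0.69, SE 0.12, adjusted p 0.12 by limma and 0.00124 in the variance-trend fit).

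NABP1, a single-strand DNA binding protein, had the highest change of all members, 0.88 (SE 0.21). Its progestin arrays were 7.36, 7.40 and 6.56, with progestin replicate 3 the low one, and those with doxycycline were 7.90, 8.01 and 8.05. It passed the variance-trend fit as deposited (adjusted p 0.0164) but not after centring (0.0524). S100A8, a calcium-binding alarmin, read 7.12, 7.29 and 6.94 with progestin and 7.94, 8.18 and 7.80 with doxycycline. Its change of 0.86 (SE 0.31) passed neither fit. Vehicle values of 2.04 to 3.35 (SD 0.71) entered that SE, and the SD was 0.177 with progestin and 0.192 with doxycycline. For LOC646214 and CLEC2D, a lectin ligand of natural killer cells, progestin replicate 3 was again the low array, at 8.59 and 6.64 against 9.50 or more and 7.79 or more on the other 2, and neither gene passed. TRANK1, the last of the 12, changed by 0.65 (SE 0.13, adjusted p 0.00543 in the variance-trend fit).

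On the lower side SLC18B1, a vesicular polyamine transporter, followed ELF5. It read 8.40, 8.39 and 8.59 with progestin, 7.69, 7.67 and 7.59 with doxycycline, and 8.28, 8.50 and 8.31 in vehicle. The 3 arrays with doxycycline thus lay below all 6 others. The change was -0.81 (SE 0.09, 1.76-fold lower), with an adjusted p of 0.0549 by limma and 1.1e-04 in the variance-trend fit.

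Of the other 10 lowest members, CRHBP, which binds corticotropin-releasing hormone, the transcripts EPB41L4A-DT and BPESC1, and MIR494 passed the variance-trend fit, with changes of -0.64, -0.58, -0.57 and -0.54 and SE of 0.17, 0.15, 0.09 and 0.12. EPB41L4A-DT did not pass it after centring (adjusted p 0.0686). BHLHA9, FOLR3, FP248 and LINC02520 passed neither fit, and BHLHA9 had 1 low array, progestin plus doxycycline replicate 2 at 6.18, against 7.13 and 7.41 on the other 2. SCGB2A2, mammaglobin, a secretory protein of breast epithelium, read 7.39, 7.36 and 7.34 with progestin and 6.60, 6.80 and 6.80 with doxycycline. Its groups did not overlap, but vehicle values of 2.09 to 4.34 widened the SE to 0.51 and the change of -0.63 passed neither fit. The tubulin TUBA3E was at -0.60 with an SE of 2.57, its vehicle arrays running from -2.66 to 8.35.

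**Figure D3:**
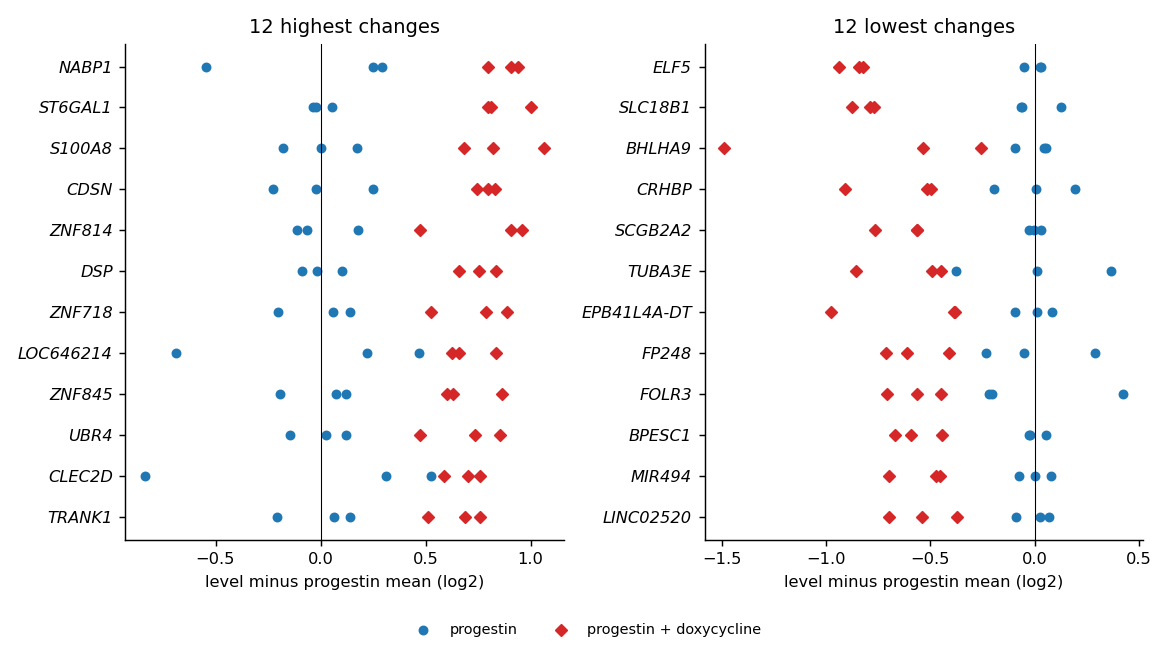
Level of each array minus the gene's progestin mean (log2) for the 12 members with the highest changes (left) and the 12 with the lowest (right), all with groups that do not overlap; circles are progestin arrays, diamonds arrays with doxycycline. ELF5, ST6GAL1, DSP and SLC18B1 show tight groups far apart, whereas NABP1, LOC646214, CLEC2D and BHLHA9 each have 1 array far from its group.

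MIR494 is the one microRNA gene among these extremes, and its 2 mature products are shown with their seeds, bases 2 to 8, in capitals, as RefSeq gives them. They are encoded on the plus strand, miR-494-3p at chr14:101029681-101029702 and miR-494-5p at chr14:101029648-101029670 (GRCh38.p14).
hsa-miR-494-3p: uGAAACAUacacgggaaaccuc
hsa-miR-494-5p: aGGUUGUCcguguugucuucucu

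The seeds differ between the 2 arms. The probe set read 9.26, 9.11 and 9.18 with progestin, 8.73, 8.71 and 8.49 with doxycycline, and 8.57, 8.60 and 8.98 in vehicle, so all 3 progestin arrays lay above the other 6. Its change had an adjusted p of 0.00588 in the variance-trend fit and 0.146 by limma. The array reads the precursor region and does not separate the arms.

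ETS factors other than ELF5 were compared because relatives can bind similar sites. Of 27 listed, 26 were measured and 17 were members. By limma ELF5 was the one member called. The variance-trend fit called 1 higher and 1 lower, EHF and ELF5, against 3.59% and 0.381% of all members. In 4 of the 17 members (23.5%) the arrays lay wholly higher and in 1 (5.88%) wholly lower, against 21.2% and 6.16% of all members. EHF, the close epithelial relative of ELF5, read 11.53, 11.47 and 11.44 with progestin and 11.72, 11.78 and 11.74 with doxycycline (change 0.27, SE 0.07, variance-trend adjusted p = 0.00622, limma 0.162). Without progestin plus doxycycline replicate 2 the fit called 0 ETS members higher. ELF3, another epithelial relative, stood at 7.93 ± 0.137 and 7.97 ± 0.16 (SD, n = 3). The median change of the list was 0.02, against 0.04 for all 10036 member genes, and it was below 0 after centring (-0.03) or quantile normalization.

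Alveolar and milk genes are the programme that ELF5 serves in the gland. Of 30 listed, 28 were measured and 14 were members, and limma called ELF5 alone. The other 14 measured genes had means under 7. Among them were the milk protein genes CSN1S1 (2.51), LALBA (3.03), CSN3 (3.59) and CSN2 (5.42), so the counts below do not cover these. In the variance-trend fit 4 were higher and 1, ELF5 itself, lower, against 3.59% and 0.381% of all members. PRLR, the prolactin receptor, read 11.65, 11.65 and 11.59 with progestin and 11.92, 11.98 and 11.85 with doxycycline (change 0.28, SE 0.07, variance-trend adjusted p = 0.00212). SLPI, a protease inhibitor of secretions, went from 9.81, 9.78 and 9.88 to 10.21, 10.33 and 10.23 (0.43, SE 0.11, variance-trend adjusted p = 0.023), but did not pass after quantile normalization (0.154).

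CD36, a fatty acid transporter, and MUC1, a mucin of the apical membrane, passed with smaller changes of 0.33 and 0.16, and neither passed after centring (adjusted p 0.075 and 0.151). STAT5A and STAT5B, which carry the prolactin signal, had changes of 0.08 and 0.05, and GATA3, a luminal factor, of -0.01. The list's median change was 0.11, and 0.05 after centring. The groups differed at the list's array medians too, at 9.69 to 9.78 with progestin and 9.93 to 10.08 with doxycycline. Leaving out progestin replicate 2 left 1 alveolar gene higher in the variance-trend fit.

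Few targets of the hormone itself passed a test. Of 23 progestin-induced members, limma called ELF5 and the variance-trend fit called MUC1 higher and ELF5 lower. In 7 (30.4%) the arrays lay wholly higher and in 2 (8.70%) wholly lower, against 21.2% and 6.16% of all members. The list's median change of 0.06 was 0.00 after centring and below 0 after quantile normalization. SGK1, a kinase strongly induced by progestins, had a change of -0.03, the calcium-binding S100P of 0.05 and HSD11B2, which inactivates cortisol, of 0.19. Among the members NDRG1 had the highest change, 0.37 (SE 0.15, variance-trend adjusted p 0.137). The 2 measured genes of the list with means under 7, EGFR and TNFSF11, had changes of 0.48 and -0.24, neither past either fit. The array medians of the list, 9.14 to 9.25 with progestin and 9.21 to 9.28 with doxycycline, overlapped.

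Estrogen receptor and luminal genes gave 3 higher and 1 lower of 22 members in the variance-trend fit and 0 by limma. Of all members the variance-trend fit called 3.59% higher and 0.381% lower. The list's median change of 0.04 fell below 0 after centring or quantile normalization. PGR, the progesterone receptor, read 9.68, 9.62 and 9.60 with progestin and 9.86, 9.99 and 10.03 with doxycycline. The groups did not overlap, and vehicle stood higher, at 11.89 to 11.92. Its change of 0.33 (SE 0.07) had an adjusted p of 0.132 by limma and 0.00417 in the variance-trend fit. GREB1, an estrogen receptor cofactor, changed by 0.30 (SE 0.07) and CDH1, E-cadherin, by 0.23 (SE 0.06), both past the variance-trend fit. CXCL12, an estrogen-induced chemokine, read 7.77, 7.80 and 7.71 with progestin and 7.49, 7.25 and 7.33 with doxycycline, below both other groups, as vehicle stood at 11.17 to 11.36. Its change was -0.41 (SE 0.09, adjusted p 0.0113 in the variance-trend fit). Of 6 basal or myoepithelial members 0 passed either fit.

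Of 36 listed mitosis genes 30 were members, and 25 of them had a negative change. In 15 the arrays with doxycycline lay wholly lower, against 6.16% of all members, and in 1 wholly higher. The higher one was MKI67 (change 0.21, SE 0.08), which passed neither fit. Limma called 0, and the variance-trend fit called 5 lower and 0 higher, against 0.381% of all members lower. CCNB1, cyclin B1, read 10.50, 10.43 and 10.50 with progestin and 10.16, 10.27 and 10.12 with doxycycline (change -0.29, SE 0.07, variance-trend adjusted p = 0.00566, limma 0.152). PTTG1, securin, went from 9.63, 9.70 and 9.74 to 9.41, 9.48 and 9.34 (-0.28, SE 0.07, variance-trend adjusted p = 0.017).

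CDC20, which activates the anaphase-promoting complex, was at -0.39, the spindle kinesin KIF20A at -0.32 and the mitotic kinase PLK1 at -0.27, each past the variance-trend fit. The kinetochore protein SPC25, at -0.36 (SE 0.06), missed it as deposited (adjusted p 0.0519) and passed after centring (0.0173). The list's median change was -0.20, and it was -0.25 after centring, when 14 genes were called lower. Array medians of the list were 8.57, 8.37 and 8.51 with progestin, 8.26, 8.30 and 8.24 with doxycycline, and 10.15 to 10.21 in vehicle. Without progestin plus doxycycline replicate 3 the variance-trend fit called 1 mitosis gene lower, and the median stayed between -0.23 and -0.17 with any array left out.

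DNA replication genes had a smaller shift. Of 32 members 24 had a negative change, 9 lay wholly lower (28.1%, against 6.16% of all members) and 0 wholly higher. Both fits called 0, and the median was -0.07. TK1, thymidine kinase, read 8.68, 8.65 and 8.63 with progestin and 8.37, 8.53 and 8.42 with doxycycline (-0.22, SE 0.07), and FEN1, the flap endonuclease, and GINS1, a helicase subunit, were at -0.22 and -0.33. After centring the variance-trend fit called 4 replication genes lower, these 3 among them (adjusted p 0.0316, 0.0163 and 0.0363). Of 18 members among p53 targets and CDK inhibitors 0 passed either fit, with a median of 0.00 as deposited and -0.05 after centring.

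Interferon response genes, many of which sense or disable foreign RNA, had small positive changes with doxycycline. All 38 measured genes were members, 36 had a positive change, 24 lay wholly higher and 0 wholly lower. Of all members, 62.7% had a positive change as deposited, 21.2% lay wholly higher and 6.16% wholly lower. Limma called 0 and the variance-trend fit 2, IFIT2 and PARP14, which is 5.26% of the list's members, against 3.55% of all member genes. Neither of the 2 passed after quantile normalization (adjusted p 0.143 and 0.0739). IFIT2, which binds viral RNA, read 9.72, 9.67 and 9.67 with progestin and 10.09, 10.22 and 10.17 with doxycycline (0.47, SE 0.12, variance-trend adjusted p = 0.0198). PARP14, an ADP-ribosyltransferase, read 9.79, 9.65 and 9.72 and then 10.07, 10.16 and 10.34 (0.47, SE 0.13, variance-trend adjusted p = 0.0163).

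Sensors of double-stranded RNA in this list had changes of 0.35 for IFIH1, 0.19 for RIGI and 0.20 for EIF2AK2, none past either fit. The median was 0.19, and 0.14 after centring. The variance-trend fit called 0 without progestin replicate 2, doxycycline replicate 2 or doxycycline replicate 3, and 8 without vehicle replicate 3. Array medians were 9.51 to 9.54 with progestin and 9.65 to 9.83 with doxycycline, against 6.15 to 6.57 in vehicle.

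The machinery of RNA interference was listed because the hairpin passes through it. Of 17 members 2 were called higher in the variance-trend fit (11.8%, against 3.55% of all member genes) and 0 by limma. In 11 the arrays lay wholly higher (64.7%, against 21.2% of all members). The median change was 0.16, or 0.10 after centring. DICER1, which cuts hairpins into short RNAs, read 8.99, 8.86 and 8.86 with progestin and 9.22, 9.31 and 9.28 with doxycycline (0.37, SE 0.07, variance-trend adjusted p = 0.0104). TNRC6B, a scaffold of the silencing complex, was at 0.50 (SE 0.09, variance-trend adjusted p = 0.0217) and is among the very long mRNAs described below. AGO2, the slicing Argonaute, had a change of 0.18 and DROSHA, which crops primary microRNAs, of 0.17, neither past either fit. Without progestin replicate 2 the variance-trend fit called 0 genes of this list.

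Several adhesion genes passed the variance-trend fit, all of them higher. Of 21 desmosome and junction members it called 6 higher and 0 lower, against 3.55% of all member genes higher. In 13 the arrays lay wholly higher, against 21.2% of all members, and limma called 0. Beside DSP these were CGN, cingulin of tight junctions (7.607, 7.687 and 7.635 to 7.998, 8.178 and 8.164), TJP1, the scaffold ZO-1 (8.46, 8.34 and 8.54 to 8.86, 8.95 and 8.87), PPL, periplakin (change 0.47), DSG2, a desmosomal cadherin (0.36), and CDH1. In all 6 called genes the arrays with doxycycline lay wholly above the progestin arrays. CLDN3, CLDN7 and NECTIN2, all of junctions, had changes of -0.02, -0.08 and -0.09. The median was 0.18, and 0.12 after centring.

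Of 20 integrin and laminin members 5 were called higher in the variance-trend fit (25%, against 3.55% of all member genes) and 0 by limma. The median was 0.23, or 0.18 after centring. FN1, fibronectin, read 7.43, 7.35 and 7.47 with progestin, 7.74, 8.01 and 8.13 with doxycycline and 8.80 to 8.89 in vehicle (change 0.54, SE 0.10, variance-trend adjusted p = 0.00588). LAMC1, a laminin chain, went from 7.79, 7.78 and 7.81 to 8.21, 8.35 and 8.26 (0.48, SE 0.08, variance-trend adjusted p = 0.00625), against 8.47 to 8.74 in vehicle. DST (0.50) and PLEC (0.36), both large linkers of the cytoskeleton, and the laminin chain LAMB2 (0.29) made up the 5. The receptor subunit ITGB1 had a change of 0.13 and ITGA5 of -0.05. Without progestin plus doxycycline replicate 2 the variance-trend fit called 1 of the desmosome and junction genes and 0 of the integrin and laminin genes higher.

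**Figure D4:**
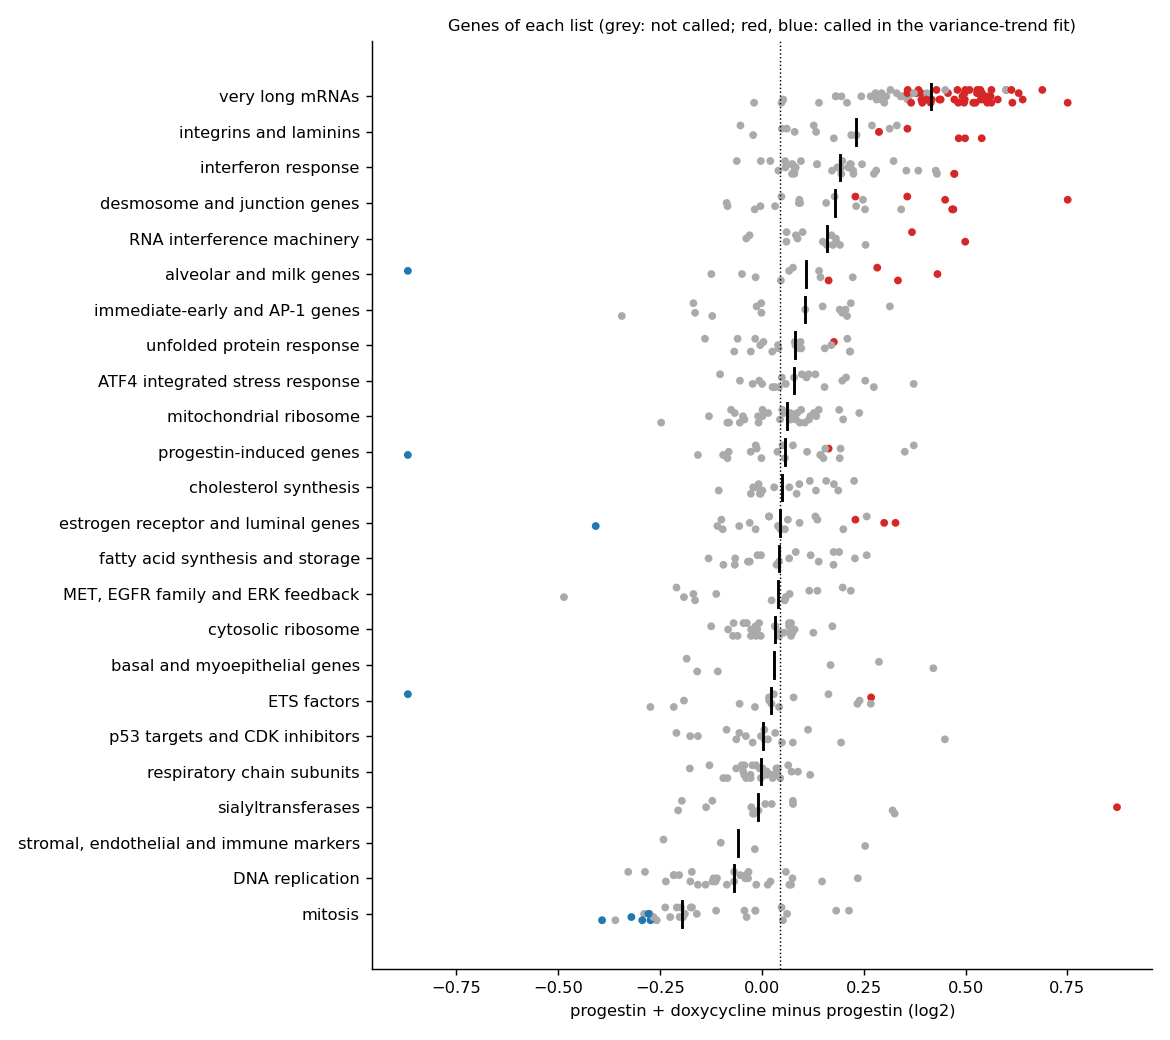
Log2 change with doxycycline for each member gene of 24 lists, 1 point per gene, with the list median as a black bar and the median of all member genes (0.04) as a dotted line; red and blue mark genes called higher and lower in the variance-trend fit. Very long mRNAs lie furthest to the right (median 0.42) and mitosis genes furthest to the left (-0.20). The very long list was written after the pattern had been seen in these data, so its place among the lists is no separate support.

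Pathways around ST6GAL1 and MACC1 held few other calls. Among 15 members of sialic acid synthesis and transfer ST6GAL1 was called by both fits and 0 others by either; GNE, the first enzyme of the pathway, was at 0.32 and ST3GAL5, which makes ganglioside GM3, at -0.20 (variance-trend adjusted p 0.195 and 0.162). Of 14 members of the MET, EGFR family and ERK feedback list 0 passed, and the median of 0.04 fell below 0 after centring or quantile normalization. SPRY4, a feedback inhibitor of ERK signalling, had the lowest change of these members, -0.49 (SE 0.19). Another 15 measured genes of the list, MACC1 among them, had means under 7. MET (mean 4.37), EGFR (6.47), ERBB4 (5.76) and DUSP6 (5.53) were also among these. Their changes were 0.03, 0.48, 0.40 and -0.26, none past either fit.

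In metabolism and stress lists the variance-trend fit called 1 gene. HSP90B1, the chaperone GRP94, was at 0.18 (SE 0.06, adjusted p 0.0331, 0.0781 after centring and 0.106 after quantile normalization) among 21 unfolded protein response members. It called 0 of 18 cholesterol synthesis, 0 of 19 fatty acid, 0 of 21 ATF4 stress, 0 of 34 mitochondrial ribosome, 0 of 31 respiratory chain, 0 of 31 cytosolic ribosome, 0 of 15 immediate-early and 0 of 4 stromal, endothelial and immune members. Limma called 0 in all 9 of these lists. Their medians lay between -0.06 and 0.11 as deposited, and those of cholesterol synthesis, fatty acid and cytosolic ribosome genes, positive as deposited, were below 0 after centring or quantile normalization.

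Median changes differed with the length of the gene. The table of protein lengths was not used here, so the RefSeq gene span from first to last base, introns included, stands in for it, and 10032 of the 10036 member genes had one. The median change was -0.02 for the 2487 genes spanning under 10 kb, 0.03 for the 2861 of 10 to 30 kb, 0.07 for the 3088 of 30 to 100 kb, 0.15 for the 1340 of 100 to 300 kb and 0.13 for the 256 of 300 kb or more. Of the genes under 10 kb the variance-trend fit called 18 higher and 19 lower, and of those from 100 to 300 kb 160 higher and 2 lower, which is 11.9% against 0.724% higher.

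A list of 96 genes with very long mRNAs, written from general knowledge after the pattern had been seen, was described without a test of its own. Of these, 76 were members, 75 had a positive change, 67 lay wholly higher and 0 wholly lower, and the median change was 0.42, or 0.36 after centring. Of all members 62.7% had a positive change as deposited and 21.2% lay wholly higher. Limma called 0, and the variance-trend fit called 47 higher and 0 lower as deposited and 46 and 0 after centring. As deposited it called 3.55% of all member genes higher. DYNC1H1, the heavy chain of dynein, stood at 9.33 ± 0.077 with progestin and 9.97 ± 0.165 with doxycycline (SD, n = 3; change 0.64, SE 0.09, variance-trend adjusted p = 1.5e-04). AHNAK, a giant scaffold, stood at 11.51 ± 0.043 and 12.03 ± 0.141 (0.52, SE 0.09), and the spectrin SPTAN1 at 9.10 ± 0.097 and 9.71 ± 0.132 (0.61, SE 0.09). HUWE1, a ubiquitin ligase, and PRKDC, a DNA repair kinase, changed by 0.54 each.

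The medians of these 76 genes on single arrays were 8.20, 8.07 and 8.19 with progestin, 8.47, 8.68 and 8.66 with doxycycline, and 8.31, 8.34 and 8.23 in vehicle. The groups did not overlap, progestin replicate 2 was the lowest of all 9 arrays, and progestin plus doxycycline replicate 1 was the lowest of its group. Without progestin plus doxycycline replicate 2 the variance-trend fit called 14 of the 76 higher, and the median stayed between 0.39 and 0.47 with any array left out. The parts of the hairpin and of doxycycline in these values cannot be told apart. No cause of the pattern, in the treatments or in the RNA of the single arrays, was tested.

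Beside the gene lists, the length values were these. Of the 21 desmosome and junction members 1 (DSP), of the 20 integrin and laminin members 1 (PLEC) and of the 17 RNA interference members 1 (TNRC6B) are in the long list, as are 0 of the 38 interferon and 2 of the 30 mitosis members. Without them the median changes were 0.17, 0.23, 0.15, 0.19 and -0.20. The median span was 42.4 kb for desmosome and junction genes, 68.4 kb for integrins and laminins, 60.8 kb for RNA interference, 23.6 kb for interferon and 28.7 kb for mitosis genes, against 27.1 kb for all member genes. The part of gene length in each list's shift was not tested. Zinc-finger genes, described after several were seen among the highest changes, had a median change of 0.13 over 183 members (0.08 after centring), and 13 of the 183 spanned 100 kb or more. The variance-trend fit called 10 of them higher (5.46%, against 3.55% of all member genes) and 0 lower. It called 3 higher without progestin replicate 2, doxycycline replicate 2 or doxycycline replicate 3, and 20 without vehicle replicate 3.

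**Figure D5:**
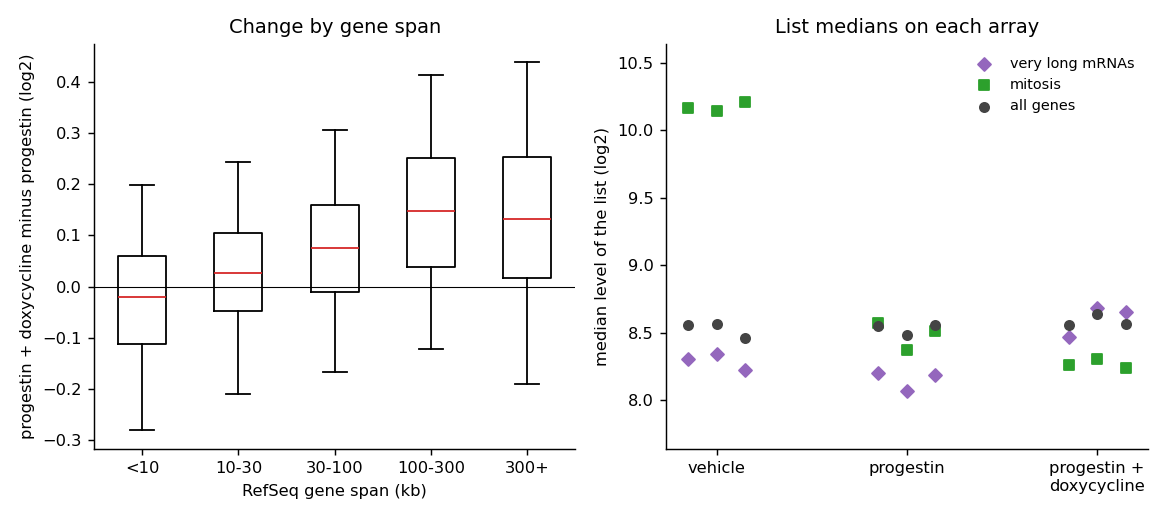
Left, log2 change with doxycycline of member genes by RefSeq gene span in kb, as boxes (quartiles, median in red, whiskers at the 5th and 95th percentiles); right, the median level on each array of the very long mRNAs (76 genes), the mitosis list (30) and all member genes. The box medians go from -0.02 under 10 kb to 0.15 at 100 to 300 kb. The long mRNAs, listed after the pattern had been seen, are higher on all 3 arrays with doxycycline (8.47 to 8.68) than on the progestin arrays (8.07 to 8.20).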

How the data were processed

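The deposited values, 1 per probe set and array of an Affymetrix human gene array, were on a log2 scale as made by the authors. Per the submitters' processing notes the tools were PLIER, Affymetrix Power Tools, limma and Affymetrix Expression Console, without versions or roles. Normalization and genome build are not given in the sources used here, and the log2 scale was inferred from the range of values, which in places lie below 0. Values below 0 carry no reliable order, and no member had one on the 6 arrays compared. The number of arrays limits the precision.

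Platform annotation gave 1 symbol to 19460 probe sets, several to 1754 and none to 12083. All 21214 with a symbol were tested with limma 3.58.1 in R 4.3.3 (1 mean per group over 9 arrays, eBayes, two-sided, Benjamini-Hochberg, adjusted p 0.05), and genes are named only from a single symbol. For genes with several probe sets, the one with the highest mean over 9 arrays stood for the gene. The code was tested on simulated data. The variance-trend fit was one of several other settings, with 2-group and replicate-block fits, other filters, quantile normalization, centring, 16 added to linear values, array weights and each array left out.

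Named genes were ELF5, PGR, every called gene, the 12 highest and 12 lowest changes without overlap, and up to 3 genes per list with the smallest p; other genes named within lists, and all in the very long and zinc-finger lists, were chosen after their values were seen. The members, lists and tests were chosen with earlier results of these data known. A planned description by protein length was replaced by gene span. Whether the triplicates were separate cultures rests on the design text; if not, p-values measure only technical spread. Promoter and microRNA sequences come from RefSeq tables (GRCh38.p14), matched by gene identifier or symbol; 19429 probe sets matched RefSeq genes.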

Additional observations from a re-analysis of the deposited data

How the results depend on the processing

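The number of calls depended on the model. For all tested probe sets, with members in brackets, limma called 4 (2), and 0 (0) with only the 2 groups fitted or with the replicate number as a block, 530 (417) with the variance trend, 396 (396) over members alone, 158 (108) without the dimmest 25%, 12 (2) over all 33297 probe sets, 7 (4) after centring, 15 (10) with 16 added, 8 (6) with array weights and 717 (717) over members with the trend. Added after seeing the data, quantile normalization with the trend gave 641 (536) and centring with it 516 (453). Leaving out 1 array gave 0 to 2 (0 to 1). At an unadjusted p under 0.05, 2875 probe sets were found with 2 groups and 2592 with the block. Members lower in the variance-trend fit were 165 after quantile normalization and 136 after centring, against 40, and with 1 array left out 51 to 623 were higher and 15 to 83 lower. These shifts in number do not say which genes stayed, and their cause was not tested.

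ELF5 kept its change of -0.87 but not its call with 2 groups (-0.87, adjusted p 0.175) or with the replicate block (-0.87, adjusted p 0.203), and lay between -0.89 and -0.83 with 1 array left out (adjusted p 0.0263 to 0.149, limma). It stayed called under the 11 other alternatives that keep all arrays. Same-numbered arrays of the 2 groups did not deviate together (correlations -0.14, -0.28 and -0.22). In replicate order the correlations were -0.10, 0.35 and 0.31 between vehicle and doxycycline arrays. Between vehicle and progestin arrays they were 0.08, -0.20 and -0.16. Whether the numbers mark paired cultures cannot be told from these values, so the block fit stands as 1 of the settings. CLDN5, which passed no fit, was at -0.10, and at -0.19 to 0.032 with 1 array left out, positive without progestin plus doxycycline replicate 2. The other named genes kept their direction. Depth here is signal: the median SE was 0.0927 among members in the main limma fit. That fit missed changes of 0.88 for NABP1 (adjusted p 0.16, limma), and of 0.75 for DSP and -0.81 for SLC18B1 (adjusted p 0.0549 each, limma). The variance-trend fit called some smaller changes, such as 0.16 for MUC1. A missing call in either fit therefore does not show that a gene was unchanged.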

Other observations

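The genes that follow were picked from the variance-trend calls after their values were seen, with no count of any kind of gene among them. CKS2, a subunit of cyclin-dependent kinases, stood at 9.21 ± 0.093 with progestin and 8.77 ± 0.078 with doxycycline (log2, SD, n = 3; change -0.43, SE 0.08, adjusted p 0.00266 in that limma fit). CDCA5, sororin, which holds sister chromatids together, went from 8.11 ± 0.065 to 7.68 ± 0.075 (-0.42, SE 0.07), and CCNE1, cyclin E1, from 8.03 ± 0.059 to 7.65 ± 0.119 (-0.38, SE 0.08). The replication-coupled histone genes H2BC14, H1-3 and H3C11 were at -0.42, -0.42 and -0.32, and the histone chaperone ASF1B at -0.39. Histone genes share near-identical sequence, so these probe sets may read more than one of them. The E2 ubiquitin enzymes UBE2T and UBE2C were at -0.44 and -0.29. Vehicle means were higher than both progestin groups for CKS2 (10.36), CDCA5 (9.45), H2BC14 (10.17) and ASF1B (9.96), but CCNE1 in vehicle stood at 7.98.

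HCAR2, a receptor for niacin and ketone bodies, changed by -0.52, the neutrophil chemokine CXCL5 by -0.51, the calcium pump ATP2A3 by -0.43 and the splicing factor CWC27 by -0.48, with adjusted p of 0.0305, 0.0268, 0.00625 and 0.00264. Called higher there were GJA1, a gap junction protein (10.58 ± 0.053 to 10.96 ± 0.075), CD24, a surface glycoprotein of luminal cells (11.71 ± 0.008 to 11.99 ± 0.027), and TMEM164 (10.80 ± 0.050 to 11.31 ± 0.057), with changes of 0.39, 0.28 and 0.51. GJA1 spans 14.1 kb and CD24 7.03 kb, so calls on the higher side were not confined to long genes.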
